A study of Homo sapiens with 18 samples.

Results

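The genes described here are 10 members of the BCL2 family, which were taken by symbol from the count tables of both overexpression systems of the study, 10 of the 60603 annotated genes in each table. They are the pro-survival genes BCL2, BCL2L1 (which encodes BCL-XL) and MCL1, the effectors BAX and BAK1, and the BH3-only genes BBC3 (PUMA), PMAIP1 (NOXA), BIK, BCL2L11 (BIM) and HRK. In the mitochondrial pathway of apoptosis, pro-survival proteins hold effector and BH3-only proteins in check. BH3-only proteins are raised or released upon stress such as DNA damage, and free effectors then open the outer mitochondrial membrane so that cytochrome c reaches the cytosol and caspases are activated. Each BH3-only protein binds a particular choice of pro-survival partners, and NOXA binds chiefly MCL1.

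The libraries hold polyadenylated RNA from the MDA-MB-231 line, a triple-negative breast cancer line of the basal subtype. The transient system holds control cells labelled as untreated, cells that received doxorubicin (0.6 µM, 48 h), and cells that by their label transiently overexpressed FLAG-tagged ZMYND8, a chromatin reader, before the same doxorubicin treatment. The inducible system holds cells with a stably introduced lentiviral pInducer20 vector that expresses GFP or FLAG-ZMYND8 under doxycycline, both selected with G418 and both induced with 250 ng/mL doxycycline. They were either left without doxorubicin (0 h) or given 0.6 µM doxorubicin for 6 or 48 h. Each of the 9 conditions has 2 libraries, which the labels number as replicates 1 and 2. For the inducible system the paper calls these replicates biological. Each construct is represented by 1 cell line, so that the effect of ZMYND8 and any other difference between the GFP and ZMYND8 lines cannot be told apart.

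The family is defined by short BCL2 homology (BH) regions, of which the BH3 region is common to all 3 classes. Its core is a leucine, any 3 residues, a glycine (alanine in PUMA) and an aspartate. The codons of this core were found at exactly 1 in-frame place in the MANE Select coding sequence (GENCODE release 44, GRCh38) of each of the 10 members. They are shown because they are the feature that joins members of opposite function, with the 6 core codons in capitals, 6 flanking bases on each side in lower case, and the position of the capitals.
BCL2 (chr18:63318361-63318378, minus strand, exon 2 of 3): ctgaccCTCCGCCAGGCCGGCGACgacttc
BCL2L1 (chr20:31721934-31721951, minus strand, exon 2 of 3): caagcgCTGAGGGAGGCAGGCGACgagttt
MCL1 (chr1:150578877-150578894, minus strand, exon 1 of 3): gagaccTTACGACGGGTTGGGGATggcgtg
BAX (chr19:48955787-48955804, plus strand, exon 3 of 6): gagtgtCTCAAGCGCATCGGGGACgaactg
BAK1 (chr6:33575399-33575416, minus strand, exon 4 of 6): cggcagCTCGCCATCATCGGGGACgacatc
BBC3 (chr19:47226591-47226608, minus strand, exon 3 of 4): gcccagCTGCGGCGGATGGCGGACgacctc
PMAIP1 (chr18:59902673-59902690, plus strand, exon 2 of 2): actcaaCTCAGGAGATTTGGAGACaaactg
BIK (chr22:43127716-43127733, plus strand, exon 3 of 5): ctgcggCTGGCCTGCATCGGGGACgagatg
BCL2L11 (chr2:111150103-111150120, plus strand, exon 3 of 4): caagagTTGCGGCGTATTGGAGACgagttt
HRK (chr12:116881182-116881199, minus strand, exon 1 of 2): gcccggCTCAAGGCGCTAGGCGACgagctg
The core lies within a single coding exon in every member. It begins at codon 29 of PMAIP1, the shortest coding sequence of the 10, and at codon 213 of MCL1, the longest. The pattern is a description and not a mark of the family by itself, as 25.2% of all 19061 MANE Select coding sequences hold it at an in-frame position (14% with glycine alone).

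The depth was 5729294 to 24713822 counts per library in the transient system and 18300628 to 23724398 in the inducible system. In the transient system only replicate 2 of doxorubicin held 24713822 counts, and the other libraries held 5729294 to 5972396. Levels are given as CPM, the count of a gene relative to the size of its library, after scaling the libraries of a system with edgeR's TMM factors, with the SD of 2 libraries. Where genes are compared with each other, they are given as TPM, which also divides by exon length. ZMYND8 was at 829 to 1001 CPM in the 6 inducible ZMYND8 libraries and at 93.8 to 209 CPM in the 6 GFP libraries. In the transient system it was at 159.8 and 125 CPM in the libraries labelled ZMYND8 plus doxorubicin, no higher than the 219 and 199 CPM of the control libraries. Replicate 2 of doxorubicin and replicate 2 labelled ZMYND8 plus doxorubicin stood apart, since they resembled each other more than any library resembled its own replicate (their counts gave a chi-square of 1.39 for each degree of freedom, against 9.71 to 55.6 for all other pairs of transient libraries across groups and 10.7 to 22.7 within groups). Of 6 marker genes of MDA-MB-231 cells, SPARC differed most between the lines, with 163 ± 2.96 CPM in GFP cells, 1.18 ± 0.549 CPM in ZMYND8 cells and 4.71 ± 1.98 CPM in the transient control cells, whereas VIM, the gene of the filament protein vimentin, was at 2156 to 4481 CPM in each inducible condition on average. The summed level of 7 luminal epithelial markers was 113 to 217 CPM over all 18 libraries. The summed leukocyte, endothelial and fibroblast markers (10 genes in 3 lists) were at 41.2 CPM or below for each list, and those of leukocytes were at 15 to 21.4 CPM in GFP and at 2.14 to 5.28 CPM in ZMYND8 cells, so these low levels moved with the line. Their part in the differences between the lines was not tested.

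In GFP cells without doxorubicin the family was led by the pro-survival genes BCL2L1 and MCL1, and in ZMYND8 cells by PMAIP1. On the length-scaled level, GFP cells held 555 ± 1.81 TPM of BCL2L1, 251 ± 1.02 TPM of MCL1 and 177 ± 1.56 TPM of PMAIP1. The effectors followed with 151 ± 7.95 TPM of BAX and 148 ± 2.48 TPM of BAK1, whose libraries overlapped. BBC3, BCL2L11, BIK, BCL2 and HRK lay at 26.4 TPM or below on average. In ZMYND8 cells the order of the leading genes was PMAIP1 with 1692 ± 41.5 TPM, MCL1 with 527 ± 3.91 TPM and BCL2L1 with 375 ± 15.2 TPM. PMAIP1 made up 13.3% of the summed TPM of the 10 genes in GFP cells and 58.1% and 58.0% in the libraries of ZMYND8 cells. The ratio of PMAIP1 to MCL1, the TPM of the BH3-only gene over that of its main partner, was 0.713 and 0.7 in the GFP libraries and 3.25 and 3.17 in the ZMYND8 libraries. With 48 h of doxorubicin it was 0.582 and 0.626 in GFP and 2.62 and 2.68 in ZMYND8 cells.

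**Figure D1:**
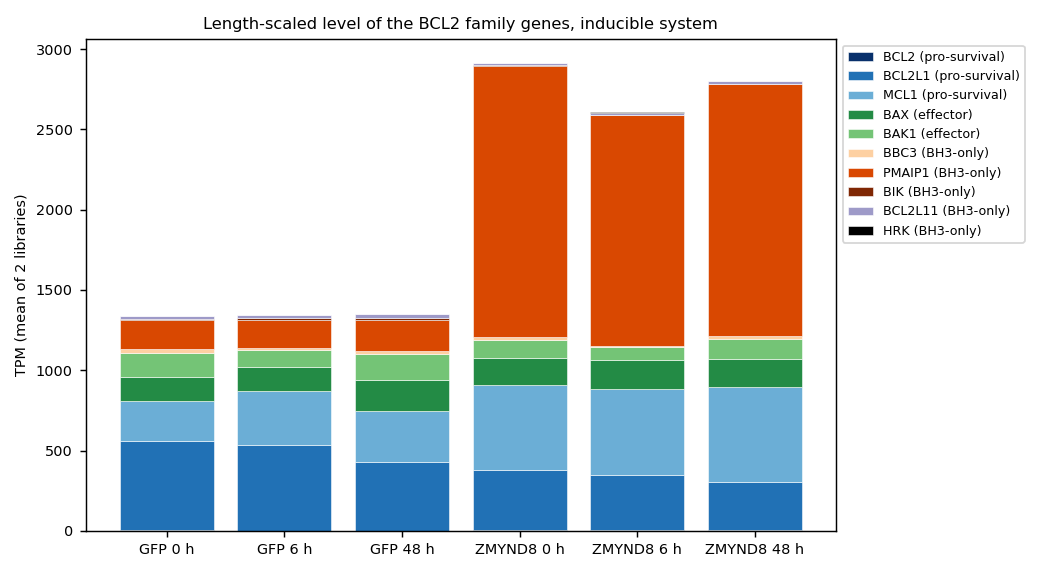
Length-scaled level (TPM, mean of 2 libraries, linear axis from 0) of the 10 BCL2 family genes, stacked in the order of the legend, in the 6 inducible conditions. The PMAIP1 segment fills more of the bar than the other 9 genes together in the ZMYND8 conditions, and the BCL2L1 segment is the largest in the GFP conditions.

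The comparison of ZMYND8 with GFP cells asks what differed in these genes with ZMYND8 overexpression, without and with doxorubicin. Without doxorubicin PMAIP1 was 9.5 times higher in ZMYND8 cells, MCL1 was 2.09 times higher and BCL2 and HRK were also higher, whereas BCL2L1, BCL2L11 and BAK1 were lower. These differences were present in cells without doxorubicin and had the same direction at 6 and 48 h. At an adjusted p of at most 0.05 (edgeR's quasi-likelihood test, Benjamini-Hochberg adjustment over all genes tested), 9 of the 10 members differed without doxorubicin, where 58.3% of the 18801 genes tested did. The count was 9 of 10 at 6 h, where 55.5% of all genes were called, and 9 of 10 at 48 h, where 60% were. Of these, 5 were higher and 4 lower at each of the 3 times, where 28.7, 28.9 and 28.4% of all genes were higher and 29.5, 26.6 and 31.6% lower. At an added 2-fold limit 4 members were called at each time, against 17.8, 16 and 17.5% of all genes, and the study's cutoff (unadjusted p of at most 0.05 and a log2 change of at least 1.5) called 1, 2 and 1, against 11.4, 10.6 and 9.44%. The median absolute log2 fold change of the members was 0.657, 0.777 and 0.705 at 0, 6 and 48 h, and that of all genes 0.457, 0.434 and 0.454. With 2 libraries against 2, an exact permutation test of a single gene could not go below a two-sided p of 0.333. In bulk RNA, more RNA per cell and more cells that express a gene cannot be told apart.

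**Figure D2:**
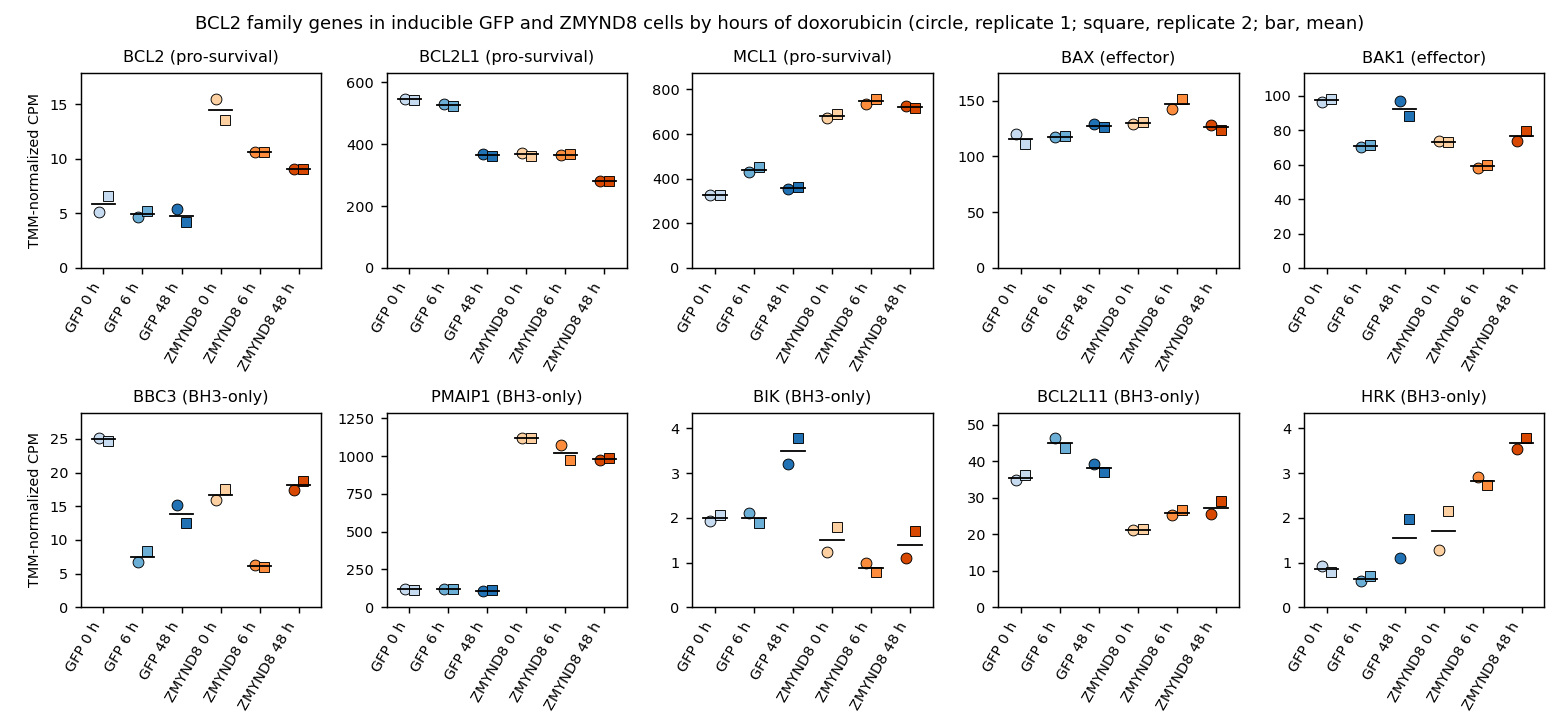
TMM-normalized CPM (linear axes from 0, a scale for each gene) of each of the 10 genes in the 12 inducible libraries, with circles for replicate 1, squares for replicate 2 and bars for the mean. The 6 ZMYND8 libraries of PMAIP1 sit between 971 and 1120 CPM and the 6 GFP libraries between 105 and 123 CPM, and BBC3 is lowest at 6 h in both lines.

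PMAIP1, whose product neutralizes MCL1, was measured at 119 and 117 CPM in the GFP and at 1118 and 1120.0 CPM in the ZMYND8 libraries without doxorubicin. All 6 ZMYND8 libraries lay above all 6 GFP libraries. The ratio of the mean levels was 9.5 without doxorubicin, 8.47 at 6 h and 8.87 at 48 h. On the log2 scale the difference was 3.25 (SE 0.05, adjusted p = 1.13e-26), 3.08 (SE 0.05, adjusted p = 2.82e-26) and 3.15 (SE 0.05, adjusted p = 2.14e-26), and by the size of its change PMAIP1 had rank 591, 755 and 242 among the 18801 genes. In the transient system, whose table was normalized separately, PMAIP1 lay at 137 to 224 CPM in all 6 libraries, nearer to the GFP than to the ZMYND8 line.

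PMAIP1 lies at chr18:59899948-59904306 on the plus strand of hg38, and no exon of it is shared with another annotated gene. Of the 65 other genes within 1.5 Mb of it, 13 were tested. Without doxorubicin 6 of these 13 were higher and 2 lower in ZMYND8 cells, where 28.7% of all genes tested were higher and 29.5% lower. Their median log2 fold change was 0.28, with a range from -1.39 (ZNF532) to 2.34 (ALPK2). The closest genes called on either side were CCBE1, 202 kb away with 0.28, and the pseudogene NFE2L3P1, 69.5 kb away with -0.87. At 6 h the far less abundant ALPK2 differed by 3.07 (SE 0.25), close to the 3.08 of PMAIP1.

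**Figure D3:**
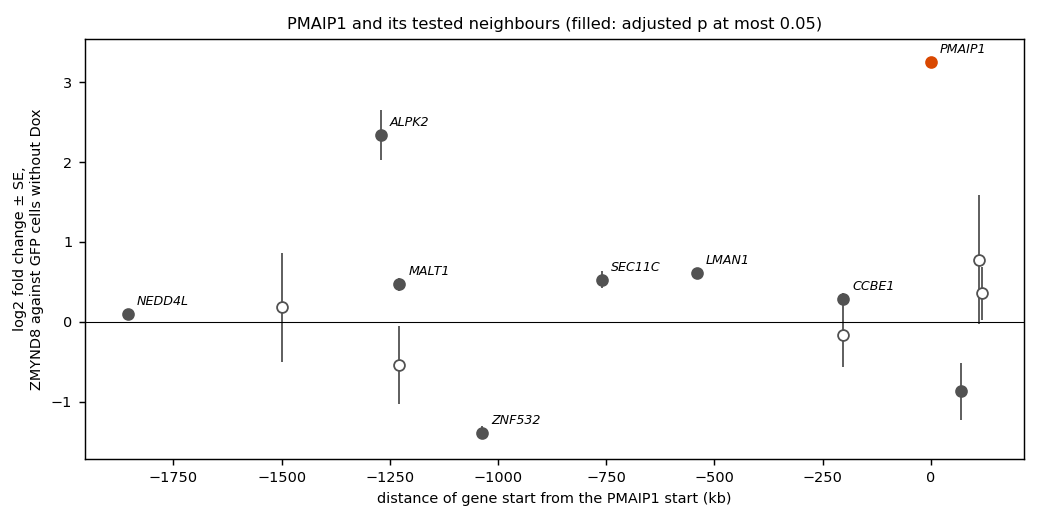
Log2 fold change with its SE in ZMYND8 against GFP cells without doxorubicin (y axis) for PMAIP1 and the 13 tested genes around it, by the distance of their start from the PMAIP1 start in kb (x axis). Filled points have an adjusted p of at most 0.05. PMAIP1 at 3.25 stands above ALPK2 at 2.34 and all other neighbours, which lie between -1.39 and 0.78.

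The first 200 bases of the RefSeq window around the PMAIP1 start (GRCh38.p14, chr18:59899746-59899945, plus strand) are shown, with matches to the 3 motifs searched in capitals. PMAIP1 was chosen because it is the member with the largest difference between the lines. The whole window runs to position 59900045, and the bases shown end before the RefSeq start.
PMAIP1: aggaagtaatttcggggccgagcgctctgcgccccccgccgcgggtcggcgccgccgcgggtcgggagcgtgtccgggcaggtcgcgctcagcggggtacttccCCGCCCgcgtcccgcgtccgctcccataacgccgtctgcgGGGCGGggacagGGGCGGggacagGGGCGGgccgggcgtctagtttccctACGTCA
The motifs were GGGCGG (GC box), TGACGT (the core of the cyclic AMP response element, bound by CREB and ATF factors) and CACGTG (E-box), each on both strands, in windows from 250 bases before to 50 after the start. The PMAIP1 window held 4 GC boxes, 3 of them on the plus strand, and 1 response element core, which stands in capitals in its reverse form ACGTCA. Of all 35116 windows, 45% held a GC box, 7.98% the response element core and 7.26% the E-box. Windows were given for 8 of the members, and among these PMAIP1 was the only one with a response element core, while E-boxes were found in BAX (4) and BBC3 (1).

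The pro-survival genes differed in both directions. MCL1, which protects cells from NOXA, BIM and PUMA and is turned over within hours, was at 325 and 327 CPM in GFP and 673 and 691 CPM in ZMYND8 cells. The 6 ZMYND8 libraries (673 to 759 CPM) and the 6 GFP libraries (325 to 451 CPM) did not overlap. Its log2 difference was 1.06 (SE 0.038, adjusted p = 1.05e-18) without doxorubicin, 0.76 at 6 h and 1.01 at 48 h. BCL2, the founding member, was a low gene in this line, with 5.17 and 6.59 CPM in GFP and 15.5 and 13.5 CPM in ZMYND8 cells, and its difference was 1.30 (SE 0.14, adjusted p = 7.36e-09). BCL2L1 went the other way, from 548 and 544 CPM in GFP to 371 and 363 CPM in ZMYND8 cells (-0.57, SE 0.036, adjusted p = 1.94e-13). An opposite-strand gene, ABALON, covers 43% of the BCL2L1 exons, and it had 256 to 524 counts in the inducible libraries, beside 6596 to 10802 counts of BCL2L1.

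Among the effectors, which form the pore in the outer mitochondrial membrane, differences were small. BAK1 was at 96.3 and 98.5 CPM in GFP and 74 and 73 CPM in ZMYND8 cells, with a log2 difference of -0.41 (SE 0.052, adjusted p = 1.51e-07), and it was lower at 6 h (-0.27) and 48 h (-0.28) as well. BAX was at 120.1 and 111 CPM in GFP and 129 and 131 CPM in ZMYND8 cells, and its log2 difference was 0.17 (SE 0.046, adjusted p = 0.00256) without doxorubicin, 0.33 (SE 0.046, adjusted p = 7.4e-07) at 6 h and -0.015 (SE 0.045, adjusted p = 0.79) at 48 h. Without replicate 2 of the GFP cells, BAX at 0 h was no longer called and its value was 0.12.

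The other BH3-only genes also split. BCL2L11, whose product BIM binds all pro-survival proteins, fell from 34.8 and 36.2 CPM in GFP to 21.1 and 21.4 CPM in ZMYND8 cells (-0.74, SE 0.079, adjusted p = 6e-09), and its log2 difference was -0.79 and -0.48 at 6 and 48 h. BBC3 changed sides. It was lower in ZMYND8 cells without doxorubicin (15.9 and 17.5 against 25.1 and 24.7 CPM, -0.57, SE 0.10, adjusted p = 2.76e-05), its difference of -0.30 at 6 h was not called (adjusted p = 0.0821), and it was higher at 48 h (17.4 and 18.8 against 15.1 and 12.4 CPM, 0.39, SE 0.11, adjusted p = 0.0022). The call at 6 h was gained without replicate 1 of GFP cells at 6 h (-0.46), and the call at 48 h was lost without replicate 2 of GFP cells at 48 h (0.26).

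HRK and BIK were near the limit of this depth. HRK, a gene best known from neurons, had 11 to 47 counts in the GFP and 23 to 89 counts in the ZMYND8 libraries. Its log2 difference was 1.03 (SE 0.35, adjusted p = 0.0129) without doxorubicin, 2.14 (SE 0.35, adjusted p = 7.03e-06) at 6 h and 1.24 (SE 0.28, adjusted p = 0.00037) at 48 h. The call without doxorubicin was lost when replicate 2 of the GFP (0.93) or of the ZMYND8 cells (0.59) was left out. BIK, a BH3-only gene of the endoplasmic reticulum, had 35 to 90 counts in the GFP and 15 to 41 in the ZMYND8 libraries. It was not called without doxorubicin (-0.38, SE 0.30, adjusted p = 0.288) and was lower in ZMYND8 cells at 6 h (-1.15, SE 0.33, adjusted p = 0.00364) and 48 h (-1.32, SE 0.27, adjusted p = 0.00013).

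**Figure D4:**
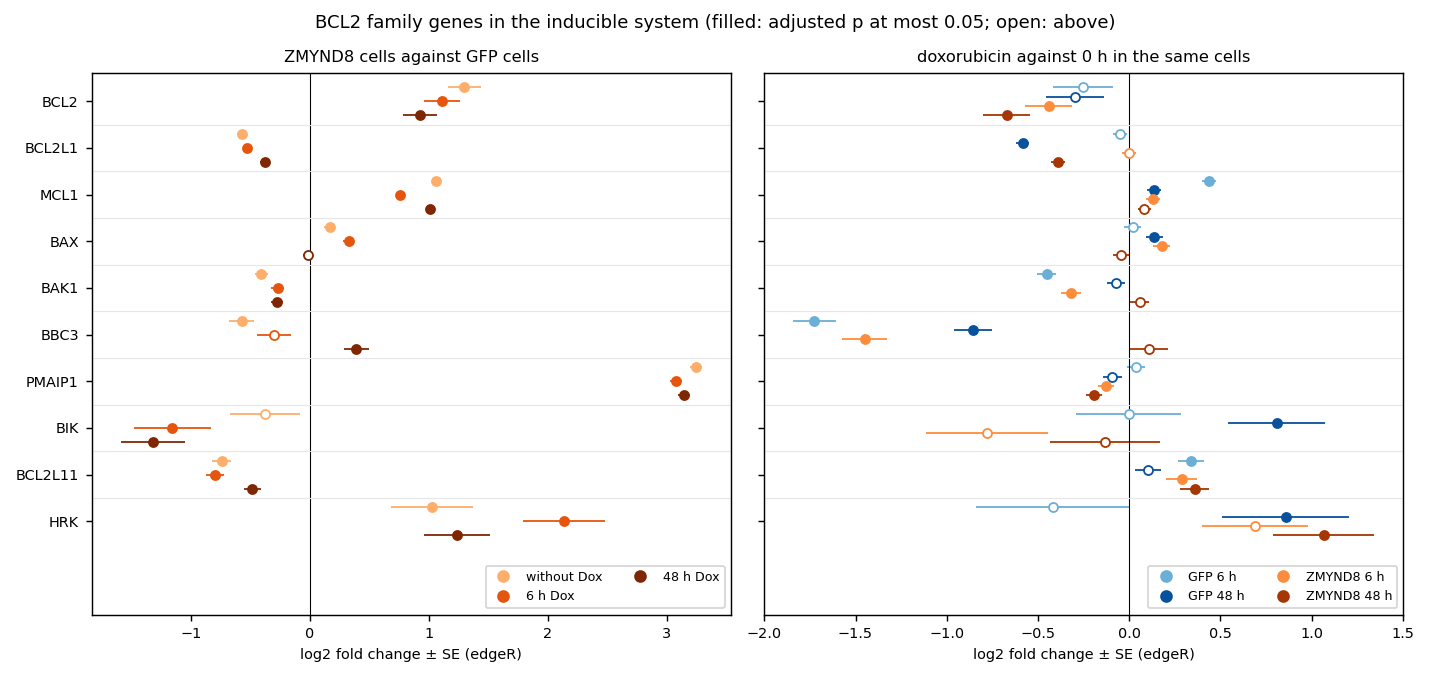
Log2 fold change with its SE (x axis) of the 10 genes in the inducible system, on the left for ZMYND8 against GFP cells at 3 times and on the right for doxorubicin against 0 h in the same line. Filled points have an adjusted p of at most 0.05. PMAIP1 lies between 3.08 and 3.25 on the left, and BBC3 at 6 h lies farthest to the left on the right, at -1.73 in GFP and -1.45 in ZMYND8 cells.

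Doxorubicin against 0 h in the same line asks how the family answered the drug. The largest change was a fall of BBC3 at 6 h in both lines, and the changes of the other genes were mostly below 2-fold. In GFP cells 4 of the 10 members were called at 6 h (2 higher and 2 lower), where 47.9% of the genes tested were (22.1% higher and 25.8% lower), and 6 at 48 h (4 higher and 2 lower), where 64.2% were (32.4% higher and 31.8% lower). In ZMYND8 cells 7 were called at 6 h (3 higher and 4 lower), against 40.8% of all genes (21.8% higher and 19% lower), and 5 at 48 h (2 higher and 3 lower), against 62.3% (31.6% higher and 30.8% lower). The 2-fold limit left 1 and 0 members in GFP cells at 6 and 48 h, against 9.17 and 22.4% of all genes, and 1 and 1 in ZMYND8 cells, against 4.78 and 20.1%. The study's cutoff left 1 and 0 in GFP cells, against 4.71 and 13.2%, and 0 and 0 in ZMYND8 cells, against 2.73 and 12.4%. At 48 h the median absolute log2 fold change of the members was 0.218 in GFP and 0.163 in ZMYND8 cells, and that of all genes 0.521 and 0.48. Scaling by total counts in place of TMM moved the all-gene median log2 change at 48 h from 0.028 to 0.27 in GFP and from 0.046 to 0.25 in ZMYND8 cells, so that small changes at 48 h are relative to this shift. The marker genes of MDA-MB-231 cells moved with the drug as well, as all 6 fell at 48 h in both lines (median log2 fold change -0.789 and -0.707). Their summed level went from 7517 CPM in both GFP libraries to 3860 and 3953 CPM, and from 6609 and 7042 to 4308 and 4461 CPM in ZMYND8 cells. VIM fell from 4481 ± 18.3 to 2156 ± 70.8 CPM in GFP and from 4002 ± 245 to 2587 ± 73.9 CPM in ZMYND8 cells. Of the 7 luminal markers, 3 rose and 2 fell in GFP cells and 4 rose and 2 fell in ZMYND8 cells. Among the risers was the epithelial cadherin gene CDH1, by 3.88 and 2.31. Only 4 of the 7 had at least 10 counts in both libraries at 0 h, in either line. The summed luminal level did not rise, with 159.6 and 165.3 CPM at 0 h and 156.1 and 159.2 CPM at 48 h in GFP cells. In ZMYND8 cells it was 125.6 and 126.1 CPM at 0 h and 123 and 125.7 CPM at 48 h. The part of these shifts in the doxorubicin results was not tested.

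BBC3, whose product PUMA binds the pro-survival proteins, fell from 25.1 and 24.7 to 6.67 and 8.4 CPM at 6 h in GFP cells and from 15.9 and 17.5 to 6.21 and 6.04 CPM in ZMYND8 cells. No library at 6 h overlapped with those at 0 h. The log2 change was -1.73 (SE 0.12, adjusted p = 1.6e-12) in GFP and -1.45 (SE 0.13, adjusted p = 3.85e-10) in ZMYND8 cells, and the difference between these changes was 0.27 (SE 0.18, adjusted p = 0.355). At 48 h the lines parted. In GFP cells BBC3 remained below its level at 0 h, with 15.1 and 12.4 CPM (-0.85, SE 0.10, adjusted p = 5.42e-08). In ZMYND8 cells it was at 17.4 and 18.8 CPM, close to the level at 0 h (0.11, SE 0.10, adjusted p = 0.376). The change at 48 h differed between the lines by 0.96 (SE 0.15, adjusted p = 1.14e-05), a call that was kept when any 1 library was left out.

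MCL1 rose at 6 h in GFP cells from 325 and 327 to 431 and 451 CPM (0.44, SE 0.039, adjusted p = 2.7e-10) and less in ZMYND8 cells, where its starting level was higher, from 673 and 691 to 734 and 759 CPM (0.13, SE 0.037, adjusted p = 0.00557). The difference between both changes was -0.31 (SE 0.054, adjusted p = 0.000246). This was the only one of the 10 genes called for a difference at 6 h, where 13.4% of all genes were. At 48 h MCL1 was 0.13 above 0 h in GFP cells (adjusted p = 0.00344) and 0.084 in ZMYND8 cells (adjusted p = 0.0518), values below the shift between scalings. The smaller calls of MCL1 rested on single libraries, as that at 6 h in ZMYND8 cells was lost without replicate 1 at 0 h (0.11) or replicate 2 at 6 h (0.11), and that at 48 h in GFP cells without replicate 2 at 48 h (0.11).

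BCL2L1 did not pass the test at 6 h in GFP cells (-0.05, SE 0.036, adjusted p = 0.27) and fell at 48 h, from 548 and 544 to 367 and 361 CPM in GFP cells (-0.58, SE 0.036, adjusted p = 9.4e-14) and from 371 and 363 to 280.0 and 281 CPM in ZMYND8 cells (-0.39, SE 0.037, adjusted p = 6.15e-10). The libraries at 48 h did not overlap with those at 0 h in either line, and the fall was smaller in ZMYND8 cells by 0.19 (SE 0.052, adjusted p = 0.00511). BCL2 fell in ZMYND8 cells, from 15.5 and 13.5 CPM at 0 h to 10.6 and 10.7 at 6 h (-0.44, SE 0.13, adjusted p = 0.00692) and 9.07 and 9.1 at 48 h (-0.67, SE 0.13, adjusted p = 5.87e-05). In GFP cells its changes of -0.25 and -0.30 were not called (adjusted p = 0.219 and 0.105), and the changes of the lines were not shown to differ (adjusted p = 0.632 and 0.188). The call of BCL2 at 6 h in ZMYND8 cells was lost without replicate 1 at 0 h (-0.35), and at 48 h BCL2 in GFP cells was called without replicate 1 at 0 h (-0.48) or at 48 h (-0.49).

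BAK1 fell at 6 h in both lines, from 96.3 and 98.5 to 70.6 and 71.8 CPM in GFP (-0.45, SE 0.053, adjusted p = 4.39e-08) and from 74 and 73 to 57.9 and 60.1 CPM in ZMYND8 cells (-0.32, SE 0.055, adjusted p = 2.92e-05). The libraries at 6 h lay below those at 0 h in both lines. At 48 h its changes of -0.071 and 0.059 were not called with TMM, and total-count scaling gave 0.17 and 0.26, turning the sign in GFP cells. Without replicate 1 of GFP cells at 48 h the fall of BAK1 was called (-0.14). BAX was 0.14 higher at 48 h in GFP cells (adjusted p = 0.00976) and 0.18 higher at 6 h in ZMYND8 cells (adjusted p = 0.00209). Its change at 48 h in ZMYND8 cells was -0.045 (adjusted p = 0.398) and became 0.16 with total-count scaling. The change at 48 h differed between the lines by -0.18 (SE 0.064, adjusted p = 0.032), but this call was lost in 5 of 8 fits that left out 1 library, with values from -0.24 to -0.13. For the GFP cells at 48 h, BAX was no longer called without replicate 2 at 0 h (0.074) or replicate 1 at 48 h (0.12).

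Among the BH3-only genes other than BBC3, PMAIP1 changed little with doxorubicin. In GFP cells it was at 119 and 117 CPM at 0 h, 119 and 123 at 6 h and 105 and 116 at 48 h, with log2 changes of 0.037 (SE 0.051, adjusted p = 0.595) and -0.092 (SE 0.051, adjusted p = 0.118). The second of these became 0.15 with total-count scaling and was called without replicate 2 at 48 h (-0.17). In ZMYND8 cells it fell by 0.13 on the log2 scale at 6 h (adjusted p = 0.0201) and by 0.19 at 48 h (adjusted p = 0.000461), and the latter became 0.014 with total-count scaling. Leaving out replicate 2 of ZMYND8 cells at 6 h gave -0.055 for PMAIP1 and leaving out replicate 2 at 0 h gave -0.12, neither of which was called.

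BCL2L11 rose at 6 h, from 34.8 and 36.2 to 46.4 and 43.5 CPM in GFP (0.34, SE 0.073, adjusted p = 0.000305) and from 21.1 and 21.4 to 25.2 and 26.6 CPM in ZMYND8 cells (0.29, SE 0.082, adjusted p = 0.00595). At 48 h it was higher in ZMYND8 cells (0.36, SE 0.08, adjusted p = 0.000323) and not called in GFP cells (0.10, SE 0.073, adjusted p = 0.223), a difference between the lines that did not pass the test (adjusted p = 0.0767). In the ZMYND8 cells the call at 6 h was lost without replicate 2 at 6 h (0.25). HRK rose at 48 h, from 18 and 15 to 25 and 47 counts in GFP cells (0.86, SE 0.35, adjusted p = 0.0335) and from 23 and 49 to 87 and 89 counts in ZMYND8 cells (1.07, SE 0.28, adjusted p = 0.00161). BIK rose at 48 h in GFP cells from 38 and 39 to 72 and 90 counts (0.81, SE 0.26, adjusted p = 0.00946), and in ZMYND8 cells its 27 and 40 counts gave a change of -0.13 (SE 0.30, adjusted p = 0.72), which became 0.073 with total-count scaling. Both calls in GFP cells rested on single libraries, with HRK at 0.37 and BIK at 0.67 without replicate 2 at 48 h, and with HRK at 0.95 and 0.75 and BIK at 0.75 without libraries at 0 h. The call of HRK at 48 h in ZMYND8 cells was lost without replicate 1 at 0 h (0.74). At 6 h HRK and BIK were not called in either line, with -0.42 and 0.69 for HRK and -0.0027 and -0.78 for BIK in GFP and ZMYND8 cells, and the sign of BIK in GFP cells turned under several settings.

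For the difference between the lines in the change at 48 h, 3 of the 10 genes were called, where 28.6% of all genes were. These were BBC3, BCL2L1 and BAX, of which BBC3 and BCL2L1 fell in GFP cells by more than they changed in ZMYND8 cells, and BAX rose in GFP cells and was not called in ZMYND8 cells. With the 2-fold limit or the study's cutoff 0 members were called for this difference at 6 h, against 1.03 and 2.01% of all genes, and 0 at 48 h, against 4.45 and 3.7%. Side by side with the comparison of the lines at 48 h, BBC3 was thus the one member that was lower in ZMYND8 cells without the drug and higher after 48 h of it.

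In the transient system none of the 9 members tested was called without the replicate number as a block. With the block, 1 member was called with doxorubicin and 3 with the label ZMYND8 plus doxorubicin, and all genes called rose from 805 to 2410 and from 1071 to 2795. The block fit held both replicate 2 libraries that resemble each other and was not run without them, so their part in these counts was not tested. The values that follow are without the block unless named. Doxorubicin against control called 0 of 9 members by edgeR, where 5.13% of the 15697 genes tested were called, and 2 members had an unadjusted p of at most 0.05, against 22.2% of all genes. The libraries labelled ZMYND8 plus doxorubicin against control gave 0 of 9, where 6.82% were called, and 3 with an unadjusted p of at most 0.05, against 24.4%. Between both doxorubicin groups 0 of 9 members and 0% of all genes were called, with 54 genes (0.344%) and 0 members at an unadjusted p of at most 0.05. The study's cutoff, here with a log2 change of at least 1, called 1, 2 and 0 members in these 3 comparisons, against 8.7, 9.84 and 0.159% of all genes, and the 2-fold limit 0, 0 and 0, against 4.08, 5.23 and 0%. By DESeq2's Wald test the counts of members were 0, 1 and 0. The member called by DESeq2 was BBC3 (-1.13). HRK had 1 and 3 counts in 2 of the 6 libraries and 0 counts in the other 4, and it was not tested. Scaling by total counts in place of TMM moved the all-gene median log2 change from -0.00038 to 0.15 with doxorubicin and from 0.0027 to 0.14 with the label ZMYND8 plus doxorubicin.

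**Figure D5:**
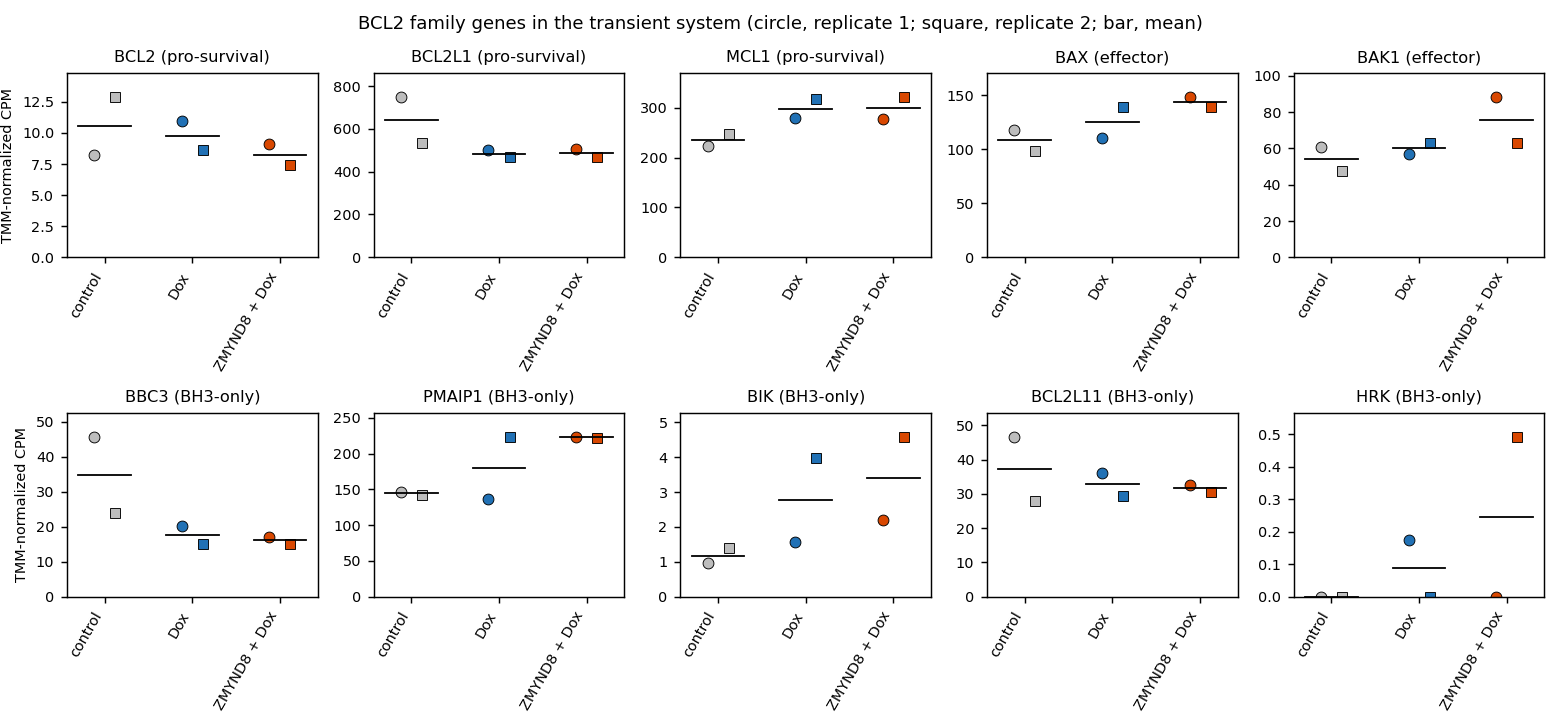
TMM-normalized CPM (linear axes from 0, a scale for each gene) of the 10 genes in the 6 transient libraries, with circles for replicate 1, squares for replicate 2 and bars for the mean. For PMAIP1 and BAX the squares of both doxorubicin groups sit at nearly one height, at 223 and 222 CPM and at 139 CPM, while the circles differ, at 137 and 224 CPM and at 110 and 148 CPM.

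BBC3 came nearest to a call in the transient system. It was at 45.8 and 23.8 CPM in the control libraries, 20.3 and 15 CPM with doxorubicin and 17.1 and 15.1 CPM in the libraries labelled ZMYND8 plus doxorubicin. Every treated library lay below both control libraries, and how many of all genes separated in this way was not counted. The log2 change was -0.996 (SE 0.31, adjusted p = 0.0886) with doxorubicin and -1.11 (SE 0.32, adjusted p = 0.0602) with the label ZMYND8 plus doxorubicin. With the replicate number as a block, both were called (-0.93 and -1.06), and so they were without replicate 2 of the control (-1.40 and -1.51). Leaving out both libraries that resemble each other gave -0.77 and -1.04, neither called.

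PMAIP1 was at 147 and 142 CPM in the control, 137 and 223 CPM with doxorubicin and 224 and 222 CPM with the label ZMYND8 plus doxorubicin. Of the doxorubicin libraries, 1 lay below the control and 1 at the level of the ZMYND8-labelled libraries, which were both above the control. The log2 change was 0.32 (SE 0.24, adjusted p = 0.469) and 0.63 (SE 0.24, adjusted p = 0.135), and the direct difference of the doxorubicin groups was 0.30 (SE 0.24, adjusted p = 1). With the block, PMAIP1 (0.63) and BIK (1.52) were called in the libraries labelled ZMYND8 plus doxorubicin against control. Without both libraries that resemble each other, the change of PMAIP1 was -0.07 with doxorubicin and 0.62 with the label ZMYND8 plus doxorubicin, neither called, and the direct difference was 0.69.

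The other members of the transient system were not called without the block. MCL1 was at 223 and 247 CPM in the control and at 278 to 321 CPM in the 4 treated libraries (0.34, SE 0.20, adjusted p = 0.345 with doxorubicin). BCL2L1 was at 748 and 533 CPM in the control and at 467 to 506 CPM in the treated libraries (-0.40, SE 0.22, adjusted p = 0.32). For both genes the treated and the control libraries did not overlap, but the treated ones include both libraries that resemble each other. How many of all genes separated in this way was not counted. In this system the counts did not separate strands, since over 405 pairs of overlapping genes on opposite strands the median ratio of antisense to sense read density was 1.43 to 1.62, against 0.0711 to 0.1 over 377 pairs in the inducible system. ABALON had 1020 to 4502 counts in the transient libraries, beside 2846 to 12251 of BCL2L1, so the reads of BCL2L1 and of this antisense gene cannot be told apart there. Opposite-strand genes also cover 10.9% of the BCL2L11 exons (MIR4435-2HG, 323 to 1455 counts) and 4.11% of the BAK1 exons (GGNBP1, 36 to 290 counts). Their part in the transient counts of BCL2L11 and BAK1 was not tested. BAX and BAK1 were not called with the label ZMYND8 plus doxorubicin (0.41, SE 0.20, adjusted p = 0.248 and 0.48, SE 0.23, adjusted p = 0.229). BIK was not called either (1.52, SE 0.63, adjusted p = 0.169), with 5 and 8 counts in the control and 13 and 28 in the libraries with this label. BCL2 and BCL2L11 moved by -0.13 and -0.19 with doxorubicin (adjusted p = 0.854 and 0.725), and BCL2 was 0.0061 with total-count scaling.

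Across the 6 inducible conditions, the mean log2 CPM of PMAIP1 spanned 3.34, that of HRK 2.36, BBC3 2.01, BIK 1.87, BCL2 1.59, MCL1 1.2 and BCL2L11 1.08, while BCL2L1 (0.961), BAK1 (0.722) and BAX (0.348) spanned less than 1. PMAIP1 was highest in ZMYND8 cells at 0 h and lowest in GFP cells at 48 h, and neighbours in the order that did not differ beyond their spread were the ZMYND8 cells at 6 and 48 h and the GFP cells at 6 and 0 h, whose libraries overlapped. The genes with the most similar course over these 6 conditions, by the largest difference of their centred mean log2 CPM, were ZC3HAV1 (0.466) and GCNA (0.496) for PMAIP1, ORC5 (0.094) and LINC00630 (0.105) for MCL1, and CTBP2 (0.14) and SPAG9 (0.185) for BCL2. For BBC3 they were PXYLP1 (0.241) and DBP (0.272), for BCL2L11 PXMP2 (0.116), for BIK COL1A1 (0.184) and PPM1N (0.207), and for HRK HYDIN (0.32) and MITF (0.383).

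The pathway around the members was described with 5 lists of genes. Among 13 other genes of the BCL2 family, of which 10 were tested, 3 were higher and 6 lower in ZMYND8 than in GFP cells without doxorubicin, with a median log2 fold change of -0.16 against 0 over all genes, of which 28.7% were higher and 29.5% lower. BMF, a BH3-only gene tied to the cytoskeleton, was the largest of these with 58.2 ± 2.87 CPM in GFP and 6.63 ± 0.026 CPM in ZMYND8 cells (-3.13, SE 0.094, adjusted p = 2.2e-20), the same direction as BCL2L11 and the opposite of PMAIP1. BMF also fell at 6 and 48 h of doxorubicin in GFP cells (-1.80 and -1.73). At 48 h the mitophagy receptors BNIP3 (-1.38 in GFP, -1.50 in ZMYND8 cells) and BNIP3L (-1.27 and -1.33) were lower, and BNIP3 was lower in the transient doxorubicin libraries too (-1.15, adjusted p = 0.0143).

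Of 16 genes of the apoptosome, the caspases and the factors released from mitochondria, all tested, 7 were higher and 6 lower in ZMYND8 cells without doxorubicin, where 28.7% of all genes were higher and 29.5% lower, with a median of -0.000117 against 0. With 48 h of doxorubicin 11 of the 16 rose and 2 fell in GFP cells, where 32.4% of all genes rose and 31.8% fell (median 0.309 against 0.0283). In ZMYND8 cells 7 rose and 3 fell, where 31.6% of all genes rose and 30.8% fell (median 0.135 against 0.0457). CASP2 rose by 1.18 in GFP cells. DIABLO, whose product blocks inhibitors of apoptosis, rose by 1.28 in ZMYND8 cells at few counts (28 and 36 at 0 h, 85 and 99 at 48 h). Among 6 tested of 7 inhibitor of apoptosis genes, 3 were higher and 2 lower in ZMYND8 cells without doxorubicin, beside the same 28.7 and 29.5% of all genes. BIRC3, which acts in TNF signalling, was lower (-1.36) and rose at 48 h in ZMYND8 cells (1.11).

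Of the death receptor genes and their adaptors (11 tested of 12), 8 were lower and 1 was higher in ZMYND8 cells without doxorubicin, where 29.5% of all genes were lower and 28.7% higher, and their median was -0.389 against 0. The ligand gene TNFSF10 (TRAIL) fell from 121 ± 1.29 to 42.5 ± 1.28 CPM (-1.50, SE 0.056, adjusted p = 2.01e-18). FAS, a receptor gene, rose with 48 h of doxorubicin in both systems, by 1.61 in GFP and 1.27 in ZMYND8 cells, and by 1.81 (adjusted p = 0.00919) in the transient doxorubicin libraries, where no member was called without the block.

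Known regulators of the members (12 genes, all tested) included 8 that were higher and 3 that were lower in ZMYND8 cells without doxorubicin, where 28.7% of all genes were higher and 29.5% lower, with a median of 0.321 against 0. TP73 rose at 48 h by 2.54 in GFP and 1.87 in ZMYND8 cells, TP63 changed by -3.12 and -2.52 at 6 h, and E2F1 rose by 1.65 at 48 h in GFP cells. HUWE1, a ubiquitin ligase that marks MCL1 for degradation, fell in GFP cells at 48 h (-1.19) and was higher in ZMYND8 than in GFP cells at that time (1.08).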

How the data were processed

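RNA-seq of 18 libraries was analysed from 2 count tables. The deposited values are raw counts, which the authors made with featureCounts 1.6.4 (read pairs, reverse-stranded setting) from GENCODE release 31 on hg38. The submitters' processing notes name Trim Galore, HISAT2 and DESeq2, whereas the study's methods name TopHat and cuffdiff, so the aligner behind the counts is uncertain. The members, gene lists and tests were chosen with earlier results of these data known.

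Each table was fitted by itself with edgeR 4.0.16 (R 4.3.3, limma 3.58.1) on all its libraries, with TMM factors, filterByExpr and the quasi-likelihood test, and a gene was called at a Benjamini-Hochberg adjusted p of at most 0.05 over all genes tested. The SE of a log2 fold change is its absolute value over the square root of the F statistic of this test. It is derived from the test and is not a separate measure of the spread between replicates. TPM used the exon lengths of the deposited tables. Alternatives were DESeq2 1.42.0, other size factors and filters, fits on only the groups compared, the call rules of the study and with a 2-fold change, a replicate block, and leaving out libraries. The script was tested on simulated data. All members were named, and of the lists the genes with an adjusted p of at most 0.05 and a log2 fold change of at least 1 (at most 3 per list and comparison). The genes near PMAIP1 were picked as the extremes and the nearest ones called, after their values were seen. A like pattern was sought for members spanning at least 1 on the log2 scale. Codons of the BH3 core were searched in coding sequences, since no protein table was used here. In the transient system, same-numbered libraries deviated together (3 pairs, correlations of 0.208 to 0.404), so the replicate numbers were taken to pair them, and the values with the replicate block stand beside the results they change. The 3 pairs of groups include that of both doxorubicin groups, whose replicate 2 libraries resemble each other, so this pairing is uncertain. Some genes that the naming rules select are not reported here.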

Additional observations from a re-analysis of the deposited data

Results flagged for a closer look

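The results below were picked because the change with doxorubicin differed between the ZMYND8 and the GFP cells by the interaction term of edgeR's quasi-likelihood test (Benjamini-Hochberg adjustment over all genes tested). They are differences of log2 changes, and each line is 1 construct in 2 libraries per condition.

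Among the members at 48 h, BBC3 differed by 0.964 (SE 0.147, adjusted p = 1.14e-05), with -0.855 in GFP and 0.109 in ZMYND8 cells. BCL2L1 differed by 0.195 (SE 0.0517, adjusted p = 0.00511), with -0.584 and -0.389. BAX differed by -0.184 (SE 0.064, adjusted p = 0.032), with 0.139 and -0.0449, and it is the weakest of these calls. At 6 h MCL1 differed by -0.305 (SE 0.0536, adjusted p = 0.000246), with 0.436 in GFP and 0.131 in ZMYND8 cells.

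Among the other genes of the pathway, the BH3-only gene BMF differed by 1.02 at 6 h (SE 0.165, adjusted p = 9.8e-05), with -1.8 in GFP and -0.786 in ZMYND8 cells, and by 1.41 at 48 h (SE 0.149, adjusted p = 3.07e-08), with -1.73 and -0.316. BIRC3, a TNF signalling gene, differed by 1.41 at 48 h (SE 0.0872, adjusted p = 2.51e-12), with -0.3 in GFP and 1.11 in ZMYND8 cells. CFLAR, whose product restrains caspase-8, differed by 1.01 at 48 h (SE 0.0696, adjusted p = 2.01e-11), with -0.822 and 0.186. The low genes TP63 and BCL2L15 went the other way at 48 h, with -1.28 (SE 0.38, adjusted p = 0.012) from 0.849 and -0.426, and with -2.68 (SE 0.731, adjusted p = 0.00633) from 3.21 and 0.533.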

How the results depend on the processing

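The differences of PMAIP1, MCL1, BCL2 and BCL2L1 between ZMYND8 and GFP cells and the fall of BBC3 at 6 h kept their direction and their call under DESeq2, the other size factors and filters, the replicate block and every left-out library. With 2 libraries per group and HRK and BIK at few counts, small changes were limited by depth, and the causes of the changes below were not tested. Under the study's cutoff (unadjusted p with a fold limit) the members called were 1 for transient doxorubicin, 2 for the transient ZMYND8 label, 1 for GFP at 6 h, 0 for GFP at 48 h and for ZMYND8 at 6 and 48 h, 1, 2 and 1 for ZMYND8 against GFP at 0, 6 and 48 h, and 0 for both line differences. An adjusted p with a 2-fold change gave 1 for GFP at 6 h, 0 for GFP at 48 h, 1 for ZMYND8 at 6 h and at 48 h, 4 for ZMYND8 against GFP at each time and 0 for both line differences. Over the settings other than leaving out 1 library, up to 9 members were called for GFP at 48 h, in place of 6. Up to 9 were called for ZMYND8 at 6 h, in place of 7, and up to 10 for ZMYND8 against GFP at 6 h, in place of 9.

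Under DESeq2 1 member was called for the transient ZMYND8 label, MCL1 was -6.4e-05 between the transient doxorubicin groups and BIK 0.011 in GFP at 6 h, as also with RLE size factors (0.011). Without a filter, 1 member was called for transient doxorubicin, 1 for the transient ZMYND8 label and 2 for the line difference at 6 h, and BCL2L1 (-0.021) and MCL1 (-0.026) between the transient doxorubicin groups, BIK in GFP (0.045) and BCL2L1 in ZMYND8 (0.013) at 6 h turned sign. With at least 10 counts per library, BAK1 in GFP (0.0042) and BAX in ZMYND8 (0.044) at 48 h did. Fits on only the groups compared turned BIK in GFP at 6 h (0.039) and BAX between the lines at 48 h (0.017). Total-count scaling called 8 members in ZMYND8 at 48 h and 2 for the line difference at 6 h, and turned BCL2 with transient doxorubicin (0.0061), BCL2L1 (-0.0051) and MCL1 (-0.0052) between the transient doxorubicin groups, BAK1 (0.17) and PMAIP1 (0.15) in GFP at 48 h, BAX (0.16), PMAIP1 (0.014) and BIK (0.073) in ZMYND8 at 48 h, and BCL2L1 for the line difference at 6 h (-0.032). Without both libraries that resemble each other, BCL2 (0.053) and PMAIP1 (-0.070) with transient doxorubicin and BCL2L1 (-0.0096) and MCL1 (-0.029) between the transient doxorubicin groups turned.

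The replicate block called 1 member for transient doxorubicin and 3 for the transient ZMYND8 label, and all genes called rose from 805 to 2410 and from 1071 to 2795. In the inducible system the numbers did not pair the libraries (15 pairs, correlations of -0.0458 to 0.0216), and with the block BIK in GFP at 6 h was 0.00066. All genes called with transient doxorubicin were 1505 without a filter and 287 without both libraries that resemble each other, and 1774 and 605 for the transient ZMYND8 label. With transient doxorubicin they were 403 without replicate 1 of the control, 500 without replicate 1 and 117 without replicate 2 of doxorubicin. For the transient ZMYND8 label they were 152 without replicate 1 and 301 without replicate 2 of that label. Between the transient doxorubicin groups they were 17 without a filter, 25 under the study's cutoff and 27 without both libraries.

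With 1 library left out at a time, the lone sample of a group was assumed to vary like the other groups. Members called ranged from 0 to 1 for transient doxorubicin and for the transient ZMYND8 label, from 4 to 7 for ZMYND8 at 6 h (4 without replicate 2 at 6 h) and from 1 to 2 for the line difference at 6 h. For transient doxorubicin the values ranged from -0.53 to 0.21 for BCL2L11, -0.44 to 0.23 for BCL2, -0.016 to 0.31 for BAK1 and -0.073 to 0.62 for PMAIP1. For the transient ZMYND8 label they ranged from -0.57 to 0.17 for BCL2L11 and -0.66 to 0.0040 for BCL2. Between the transient doxorubicin groups they ranged from -0.13 to 0.10 for MCL1, -0.35 to 0.094 for BBC3, -0.0057 to 0.69 for PMAIP1, -0.46 to 1.10 for BIK, -0.21 to 0.095 for BCL2L11 and -0.059 to 0.055 for BCL2L1. In GFP at 6 h the ranges were -0.030 to 0.078 for BAX and -0.085 to 0.079 for BIK. In ZMYND8 they were -0.0144 to 0.0125 for BCL2L1 at 6 h, and -0.49 to 0.17 for BIK and -0.00478 to 0.10 for BAK1 at 48 h. Between the lines at 48 h BAX ranged from -0.0367 to 0.00772, and the line difference of HRK at 48 h from -0.14 to 0.69. DESeq2 gave no adjusted p for HRK and BIK in the line difference at 6 h.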
